A study of Mus musculus with 3 samples.

Results

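The 49 genes described here are nuclear genes of oxidative phosphorylation, taken by symbol from 30415 measured symbols and grouped by the complex they belong to: 24 of complex I (Nduf), 4 of complex II (Sdh), 8 of complex III (Uqcr and Cyc1), 10 of complex IV (Cox) and 3 of complex V (Atp5). The members were given as a list of symbols, chosen with earlier results of these data known. All 49 had UMIs in each of the 3 libraries, and all 49 passed the minimum of 50 UMIs in both comparisons, so none was left out.

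Hearts of NOD/SCID mice were measured by droplet single-cell RNA sequencing of 3′ transcript ends. Every animal, the controls included, carried the NOD/SCID background, an immunodeficient strain without functional T and B lymphocytes. Mice received an isotype control antibody, pembrolizumab (an antibody raised against human PD-1) or atezolizumab (an antibody against PD-L1) on days 0 and 7, and hearts were harvested on day 14. Each group was 1 pool of 3 hearts sequenced as 1 library, so the groups have no replicates and no test between them was possible. The labels do not give the age or sex of the animals or the doses. For the treated libraries the labels disagree: the library titled PD1/PEM has atezolizumab as its treatment, and the library titled PDL1/ATZ has pembrolizumab. Titles are used as the names of the libraries, and no value below is assigned to an antibody.

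The isotype, PD1/PEM and PDL1/ATZ libraries held 9510, 6388 and 11599 cells with 16677883, 14766346 and 15144668 UMIs, each UMI standing for 1 captured transcript. The PDL1/ATZ library stood apart from the others. Its cells had a median of 8.04% of their UMIs from the 13 protein-coding genes of the mitochondrial genome, against 27.1% in isotype and 26.9% in PD1/PEM. It also had 2893 symbols with UMIs that were at 0 in both other libraries, while 1241 symbols read in both others were at 0 there, and no member was among either set. Of the cell barcodes, 23 were shared by isotype and PD1/PEM. In every library the summed defining markers of cardiomyocytes were abundant, at 33767 CPM (counts scaled to a total of 1000000 UMIs) in isotype, 24758 in PD1/PEM and 13076 in PDL1/ATZ. At least 3 of 10 cardiomyocyte markers were found in at least 99.5% of the cells of each library, so these markers did not separate cell types and the values below are sums over all deposited cells. In such sums, fewer cells of a type and less RNA per cell cannot be told apart.

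Oxidative phosphorylation is the last stage of fuel use in mitochondria. Complexes I and II pass electrons from NADH and succinate to ubiquinone, complexes III and IV pass them on to oxygen, complexes I, III and IV pump protons across the inner membrane, and complex V, the ATP synthase, lets the protons back to make ATP. The heart depends on it more than almost any other organ, and cardiomyocytes are packed with mitochondria. Complexes I, III, IV and V combine subunits from nuclear genes with a few subunits from the mitochondrial genome, while complex II is wholly nuclear in origin.

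The members together gave 200586 UMIs in isotype, 127222 in PD1/PEM and 161553 in PDL1/ATZ. Their summed level was 12027 CPM in isotype, 8616 in PD1/PEM and 10667 in PDL1/ATZ. Isotype was highest and PD1/PEM lowest. When only the UMIs of nuclear genes were used as the total, the level in this nuclear CPM was 16252 in isotype, 11634 in PD1/PEM and 11562 in PDL1/ATZ, and the treated libraries were then almost level with each other. The choice of total mattered little for PD1/PEM, where mitochondrially encoded genes took 25.9% of all UMIs against 26.0% in isotype, and much for PDL1/ATZ, where they took 7.74%.

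Members differed widely in level. In isotype they ran from 34.8 CPM for Sdhd, a membrane anchor of complex II, to 875 CPM for Atp5a1, the alpha subunit of the catalytic head of ATP synthase, with a median of 187 CPM. The median was 137 CPM in PD1/PEM and 165 CPM in PDL1/ATZ. Because 3′ end counting yields about 1 count per transcript whatever its length, CPM was not divided by gene length. By summed level in isotype, complex I (3780 CPM, 95% counting interval 3750 to 3809) and complex IV (3746 CPM, 3717 to 3775) had overlapping intervals, followed by complex V at 2213, complex III at 1837 and complex II at 452 CPM. Each interval in this text is at 95% and covers counting error only, not differences between hearts, pools or captures.

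**Figure D1:**
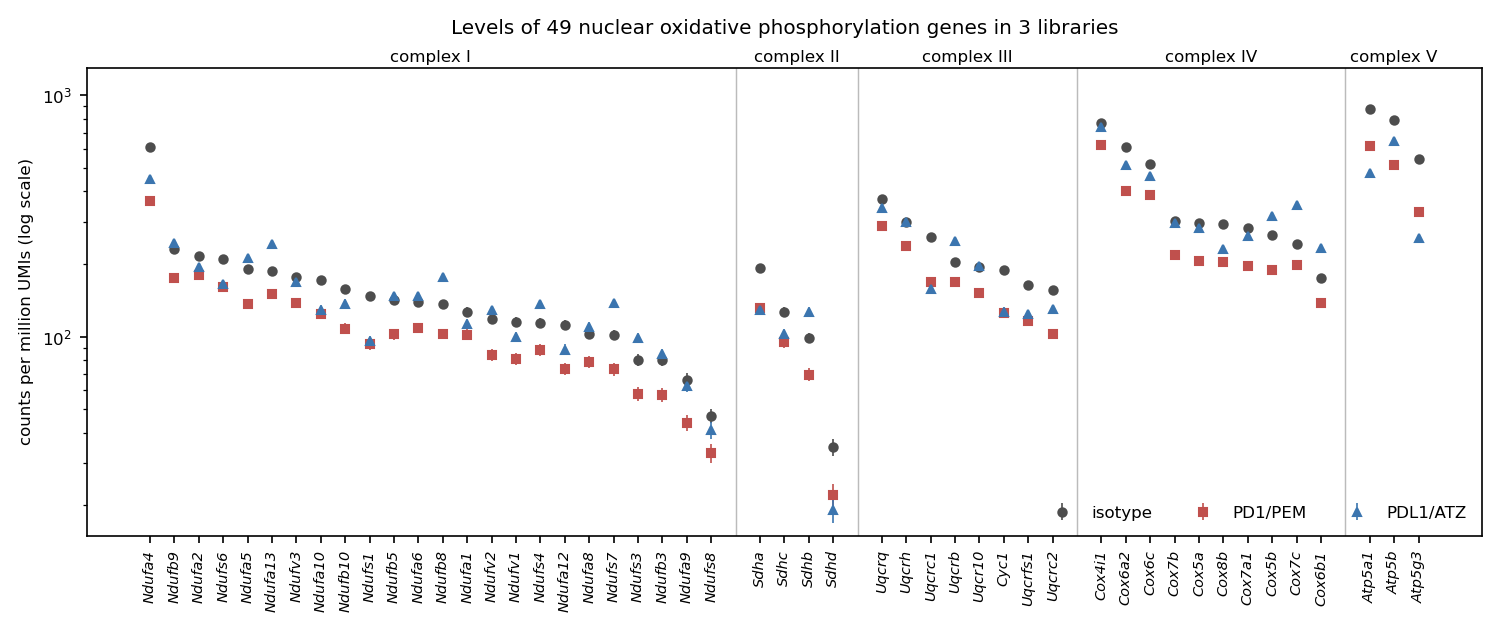
Level of each of the 49 members in CPM (log scale) in the isotype (circles), PD1/PEM (squares) and PDL1/ATZ (triangles) libraries, by complex and by falling isotype level, with 95% counting intervals that are mostly smaller than the points. The PD1/PEM square lies under the isotype circle for all 49 genes, while PDL1/ATZ triangles lie above it for 19 and below it for 30.

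In PD1/PEM against isotype, all 49 members were lower. Of the 14748 genes tested, 48.9% were lower in the same comparison. The members' median log2 ratio was -0.48, beside 0.01 for all genes tested, and the ratios ran from -0.74 for Ndufa4 to -0.26 for Ndufa2. A ratio of at least 1.5-fold lower was reached by 11 members, beside 4.44% of all genes tested. No member was at least 1.5-fold higher, where 5.47% of all genes were. The summed members had a log2 ratio of -0.48 (interval -0.49 to -0.47). With the total of nuclear UMIs, all 49 were again lower, beside 49.0% of all genes.

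In PDL1/ATZ against isotype, 30 of 49 members were lower, beside 18.2% of the 15494 genes tested. The members' median log2 ratio was -0.11, while that of all genes was 0.58. Of the 49 members, 5 were at least 1.5-fold lower, a higher share than the 5.32% of all genes. None was at least 1.5-fold higher, where 49.5% of all genes were. With nuclear UMIs as the total, 43 members were lower, beside 33.3% of all genes, and the members' median was -0.43 beside 0.26. On that scale 15 of the 49 members were at least 1.5-fold lower, also a higher share than the 10.7% of all genes. The log2 ratio of the sum was -0.17 on all UMIs and -0.49 on nuclear UMIs. Both comparisons use the same isotype library, so their ratios are given side by side and are not independent of each other. The total matters for each PDL1/ATZ ratio below: ratios are on all UMIs unless stated, and each gene's log2 ratio is lower by a constant on nuclear UMIs, a shift of -0.32. With that shift 13 members higher than isotype on all UMIs were lower on nuclear UMIs: Ndufa5, Ndufa6, Ndufa8, Ndufb3, Ndufb5, Ndufb9, Ndufs3, Ndufs4, Ndufv2, Uqcrb, Uqcrh, Uqcr10 and Cox5b. In PD1/PEM the shift was -0.001 and no member changed direction.

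**Figure D2:**
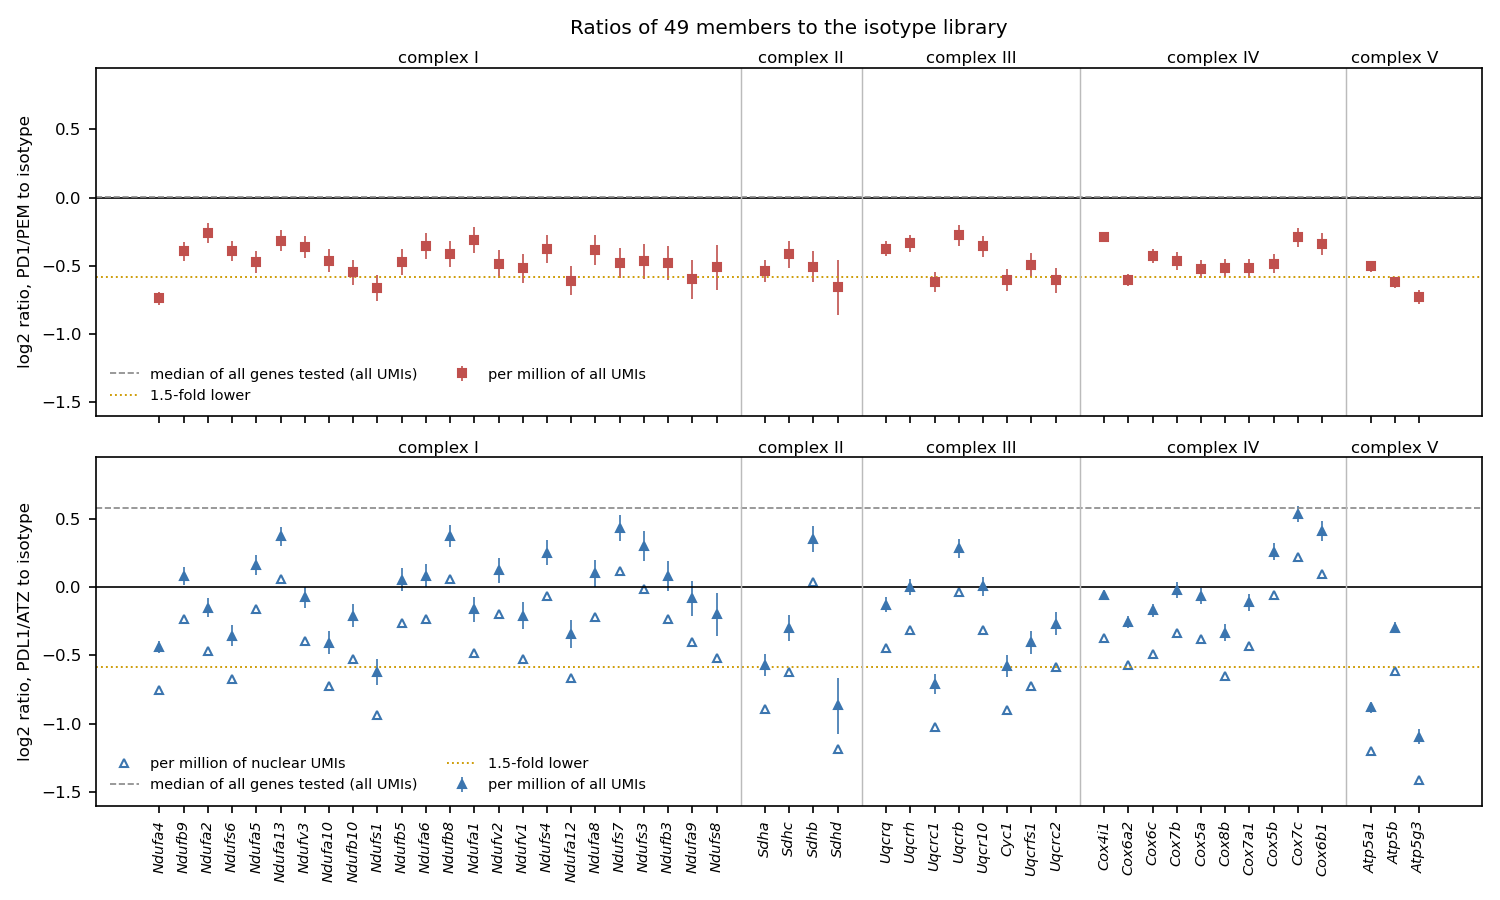
Log2 ratio of each member to isotype on the total of all UMIs (filled, with 95% counting intervals), for PD1/PEM above and PDL1/ATZ below, where open triangles use nuclear UMIs. All squares lie between -0.74 and -0.26, under the dashed median of all genes at 0.01, while filled triangles run from -1.10 to 0.54 and all lie under their dashed median of 0.58.

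Promoter sequence was available for 37 of the 49 members, as 38 promoters of 300 bases (250 before and 50 after the transcription start) from RefSeq on GRCm38.p6. Atp5a1, Cox4i1, Cox6a2, Cox6c, Cyc1, Ndufa2, Ndufb9, Ndufs1, Sdhc, Uqcrb, Uqcrc2 and Uqcrq had no entry in the promoter table. Letters of 4 factors known to act on respiratory genes were searched on both strands: TCAAGGTCA for the estrogen-related receptors (ERR), CCGGAAG for GABP, GCGCANGCG for NRF1 and AAGATGGCG for YY1. No match of one factor overlapped a match of another, and 1 pair of NRF1 matches overlapped. The 4 promoters below belong to members at or near the low end of the ratios, Ndufa4 being the lowest in PD1/PEM and Atp5g3, Sdhd and Uqcrc1 the lowest of their complexes in each comparison. They are written 5′ to 3′ on the strand of the gene, with the matched letters in capitals. They lie at chr2:73911277-73911576 (Atp5g3, minus strand), chr9:50603800-50604099 (Sdhd, minus strand), chr9:108936398-108936697 (Uqcrc1, plus strand) and chr6:11907401-11907700 (Ndufa4, minus strand).
Atp5g3: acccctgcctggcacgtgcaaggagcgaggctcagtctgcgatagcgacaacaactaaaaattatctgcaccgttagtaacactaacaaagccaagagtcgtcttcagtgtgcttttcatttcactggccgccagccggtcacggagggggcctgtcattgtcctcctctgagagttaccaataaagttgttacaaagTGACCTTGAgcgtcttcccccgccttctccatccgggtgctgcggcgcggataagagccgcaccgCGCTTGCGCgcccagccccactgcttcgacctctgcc
Sdhd: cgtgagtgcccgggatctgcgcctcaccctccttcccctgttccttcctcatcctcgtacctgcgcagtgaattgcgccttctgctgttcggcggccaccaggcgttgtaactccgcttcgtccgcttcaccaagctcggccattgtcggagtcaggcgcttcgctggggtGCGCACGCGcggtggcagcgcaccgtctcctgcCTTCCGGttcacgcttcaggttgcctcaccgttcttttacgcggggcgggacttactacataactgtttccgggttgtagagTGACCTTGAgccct
Uqcrc1: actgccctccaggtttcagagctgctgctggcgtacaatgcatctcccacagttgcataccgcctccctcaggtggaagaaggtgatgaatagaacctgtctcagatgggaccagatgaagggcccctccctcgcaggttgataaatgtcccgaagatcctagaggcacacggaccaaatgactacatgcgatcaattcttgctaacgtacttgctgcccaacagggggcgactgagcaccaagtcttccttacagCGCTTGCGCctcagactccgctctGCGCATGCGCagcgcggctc
Ndufa4: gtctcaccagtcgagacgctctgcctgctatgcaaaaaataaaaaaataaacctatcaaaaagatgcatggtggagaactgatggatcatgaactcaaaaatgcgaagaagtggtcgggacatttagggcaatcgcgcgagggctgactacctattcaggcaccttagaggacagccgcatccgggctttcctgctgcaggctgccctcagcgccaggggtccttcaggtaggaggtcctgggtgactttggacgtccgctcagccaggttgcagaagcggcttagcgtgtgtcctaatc

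The Atp5g3 promoter held 1 ERR and 1 NRF1 match, and the Sdhd promoter held 1 match each to ERR, GABP and NRF1. These were the only 2 of the 38 member promoters with the ERR letters, a share of 5.26%, where 0.42% of all 32851 promoters and 0.33% of the 21262 promoters of protein-coding genes held them. NRF1 letters were in 26.3% of member promoters, against 6.25% of all and 8.58% of protein-coding promoters. Since 2 overlapping Ndufa5 promoters share 1 match, the share by gene was 24.3% of members, against 7.03% of all and 9.63% of protein-coding genes. The Uqcrc1 promoter held 3 NRF1 matches, all after the transcription start. The last 2 are the overlapping pair, 1 stretch that matches on both strands. YY1 letters were in 10.5% of member promoters, 1.40% of all and 1.83% of protein-coding promoters, and GABP letters in 15.8%, 8.86% and 11.6%. Ndufa4 held none of the 4. A match describes letters only and is not a binding site, and the shares are descriptions without a test.

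Complex I, which oxidises NADH, had a summed level of 3780 CPM in isotype, 2719 in PD1/PEM and 3611 in PDL1/ATZ. PD1/PEM was the lowest, and isotype and PDL1/ATZ lay close together. The log2 ratio of the sum was -0.48 in PD1/PEM. In PDL1/ATZ it was -0.07 on all UMIs and -0.38 on nuclear UMIs. All 24 complex I members were lower in PD1/PEM, with a median of -0.47, and 12 of 24 were lower in PDL1/ATZ on all UMIs and 21 of 24 on nuclear UMIs. Of all genes tested, 48.9% were lower in PD1/PEM, and 18.2% in PDL1/ATZ on all UMIs and 33.3% on nuclear UMIs.

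Ndufa4 was the most abundant of the Nduf members, at 609.9 CPM in isotype, 366 in PD1/PEM and 449.9 in PDL1/ATZ. Isotype was the highest and PD1/PEM the lowest. Its log2 ratio was -0.74 (-0.78 to -0.69) in PD1/PEM, the lowest of all 49 members, and -0.44 in PDL1/ATZ. The gene is listed with complex I by its name, and its protein has since been assigned to complex IV. Without it, the summed complex I ratio was -0.43 in PD1/PEM and -0.004 in PDL1/ATZ, and complex IV with it stood at -0.48 and -0.08.

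Ndufs1, the largest complex I subunit and a carrier of its iron-sulphur clusters, was at 147 CPM in isotype, 93.1 in PD1/PEM and 95.9 in PDL1/ATZ. Isotype was the highest, with log2 ratios of -0.66 (-0.76 to -0.57) in PD1/PEM and -0.62 (-0.71 to -0.53) in PDL1/ATZ, the latter -0.94 on nuclear UMIs. Ndufa12, an accessory subunit of the NADH-binding arm, was at 112 CPM in isotype, 73.6 in PD1/PEM and 88.4 in PDL1/ATZ, with ratios of -0.61 and -0.34. Ndufa9, an accessory subunit near the ubiquinone site, was at 66.4, 43.9 and 62.7 CPM in the same order, with ratios of -0.60 and -0.08. Isotype was the highest library for both.

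The other complex I members were less far from isotype in PD1/PEM. Ndufa2, an accessory subunit of the same arm, had the smallest difference of all members, at 216 CPM in isotype, 180.3 in PD1/PEM and 195 in PDL1/ATZ, a log2 ratio of -0.26 (-0.33 to -0.19) in PD1/PEM. Ndufs7, a core subunit that holds the last iron-sulphur cluster before ubiquinone, was at 102 CPM in isotype, 73.3 in PD1/PEM and 138 in PDL1/ATZ. It was the lowest in PD1/PEM and the highest in PDL1/ATZ, with ratios of -0.48 and 0.43. Ndufs8, its neighbour in the electron path, was at 46.9 CPM in isotype, 32.9 in PD1/PEM and 40.9 in PDL1/ATZ, lower in each treated library. By subunit name, the 9 Ndufs and Ndufv members had a median of -0.48 in PD1/PEM, the 10 Ndufa members -0.42 and the 5 Ndufb members, accessory subunits of the membrane arm, -0.47. In PDL1/ATZ the corresponding medians were -0.07, -0.12 and 0.08 on all UMIs and -0.39, -0.43 and -0.24 on nuclear UMIs.

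Complex II, succinate dehydrogenase, is at once an enzyme of the citric acid cycle and an entry point of electrons. Its 4 members summed to 452 CPM in isotype, 319 in PD1/PEM and 377 in PDL1/ATZ, with log2 ratios of -0.51 and -0.26. Sdha, the flavoprotein that oxidises succinate, was at 192 CPM in isotype, 132 in PD1/PEM and 129 in PDL1/ATZ. Isotype stood above both treated libraries, which lay close together, with ratios of -0.54 and -0.57. Sdhd was at 34.8 CPM in isotype, 22.1 in PD1/PEM and 19.1 in PDL1/ATZ, with ratios of -0.66 (-0.86 to -0.46) and -0.87 (-1.08 to -0.66). Its wide intervals follow from 581, 326 and 289 UMIs, the fewest of any member. Sdhc, the other membrane anchor, was at 127 CPM in isotype, 95.01 in PD1/PEM and 103 in PDL1/ATZ, with ratios of -0.41 and -0.30. Sdhb, the iron-sulphur subunit, did not follow them: at 99.0 CPM in isotype, 69.6 in PD1/PEM and 126 in PDL1/ATZ, it was lower in PD1/PEM (-0.51) and higher in PDL1/ATZ (0.35).

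Complex III carries electrons from ubiquinol to cytochrome c. Its 8 members summed to 1837 CPM in isotype, 1355 in PD1/PEM and 1621 in PDL1/ATZ, with log2 ratios of -0.44 and -0.18. The 3 members at least 1.5-fold lower in PD1/PEM were Uqcrc1 and Uqcrc2, the large core proteins on the matrix side, and Cyc1, cytochrome c1. Uqcrc1 was at 258 CPM in isotype, 168 in PD1/PEM and 158 in PDL1/ATZ, lower in each treated library (-0.62 and -0.71). Cyc1 was at 189.7 CPM in isotype, 125 in PD1/PEM and 127 in PDL1/ATZ, with ratios of -0.60 and -0.58. Uqcrc2 was at 156 CPM in isotype, 103 in PD1/PEM and 129.9 in PDL1/ATZ, with ratios of -0.60 and -0.27.

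Among the small subunits of complex III, Uqcrb, a small subunit that helps bind ubiquinone, was at 204 CPM in isotype, 168 in PD1/PEM and 248 in PDL1/ATZ, lower in PD1/PEM (-0.28) and higher in PDL1/ATZ on all UMIs (0.28). On nuclear UMIs its PDL1/ATZ ratio was -0.035, and all 8 complex III members were lower there. Uqcrq, the most abundant of the 8, was at 372 CPM in isotype, 287 in PD1/PEM and 339.8 in PDL1/ATZ, with ratios of -0.37 and -0.13. Uqcrh and Uqcr10 were lower in PD1/PEM (-0.34 and -0.36) and at the isotype level in PDL1/ATZ on all UMIs (0.00 for each). Uqcrfs1, the Rieske iron-sulphur protein, was at -0.50 in PD1/PEM and -0.41 in PDL1/ATZ.

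Complex IV, cytochrome c oxidase, reduces oxygen to water. Its 10 members summed to 3746 CPM in isotype, 2761 in PD1/PEM and 3683 in PDL1/ATZ, with log2 ratios of -0.44 and -0.02. All 10 were lower in PD1/PEM, and 7 of 10 were lower in PDL1/ATZ, or 8 of 10 on nuclear UMIs. Cox4i1, the main form of a regulatory subunit, was the most abundant at 765 CPM in isotype, 626 in PD1/PEM and 737 in PDL1/ATZ, one of the smaller differences in PD1/PEM (-0.29). Cox7c, a small subunit, was at 242 CPM in isotype, 197 in PD1/PEM and 351 in PDL1/ATZ. It had the highest ratio of all members in PDL1/ATZ, 0.54 (0.48 to 0.60), against -0.29 in PD1/PEM. Cox6b1 and Cox5b were also higher in PDL1/ATZ on all UMIs (0.41 and 0.26) and lower in PD1/PEM (-0.34 and -0.49). On nuclear UMIs Cox7c and Cox6b1 were still above isotype in PDL1/ATZ, at 0.22 and 0.09, and Cox5b was below it at -0.057.

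Complex IV is also the complex in which the heart uses its own forms of some subunits. Cox6a2, the heart and skeletal muscle form of subunit 6a, was at 610.3 CPM in isotype, 401 in PD1/PEM and 512 in PDL1/ATZ. It was the only complex IV member at least 1.5-fold lower in PD1/PEM, at -0.61 (-0.65 to -0.56), and was at -0.25 in PDL1/ATZ. Its ubiquitous counterpart Cox6a1 was at 47.8 CPM in isotype, 46.5 in PD1/PEM and 87.7 in PDL1/ATZ, near isotype in PD1/PEM (-0.04) and higher in PDL1/ATZ (0.88). Of the UMIs of both genes, Cox6a2 had 92.7% (92.2 to 93.2) in isotype, 89.6% in PD1/PEM and 85.4% in PDL1/ATZ. Cox8b, the muscle form of subunit 8, had 78.8% of the Cox8 UMIs in isotype, 71.8% in PD1/PEM and 59.7% in PDL1/ATZ. It was at 292 CPM in isotype and 204 in PD1/PEM (-0.52), while the ubiquitous Cox8a was at 78.7 and 79.8 CPM (0.02). Cox7a1, the muscle form of subunit 7a, had 57.0% of the UMIs of Cox7a1 and Cox7a2 in isotype, 52.4% in PD1/PEM and 51.9% in PDL1/ATZ. For Cox4i1, whose partner Cox4i2 is known from the lung, the share was 98.7%, 97.9% and 96.7%. All of these shares were highest in isotype, and the Clopper-Pearson intervals of isotype did not overlap those of either treated library.

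Complex V makes the ATP. Its 3 members, all among the most abundant, summed to 2213 CPM in isotype, 1462 in PD1/PEM and 1376 in PDL1/ATZ. On these 3 members, it was the only complex whose sum was lower in PDL1/ATZ than in PD1/PEM on the total of all UMIs. On the listed members it also had the lowest log2 ratio of the 5 complexes in each comparison, -0.60 and -0.69. This rank rests on the choice of members. In PD1/PEM the Atp5 genes outside the members ran from -0.58 (Atp5c1) to -0.04 (Atp5g1), all above -0.60. Among Atp5 genes outside the members, Atp5g1 (0.95), Atp5g2 (0.97), Atp5h (0.33), Atp5j (0.52), Atp5j2 (0.21) and Atp5o (3.48) were higher in PDL1/ATZ. Atp5c1 (-0.16), Atp5d (-0.32), Atp5e (-0.05), Atp5f1 (-0.22), Atp5k (-0.19) and Atp5l (-0.01) were lower there, each on all UMIs. The share of the complex V members in all member UMIs was 18.4% in isotype, 17.0% in PD1/PEM and 12.9% in PDL1/ATZ.

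Atp5g3, a gene for subunit c, the rotating ring of the synthase, was at 545 CPM in isotype, 329.6 in PD1/PEM and 255 in PDL1/ATZ. Isotype was above both, with ratios of -0.73 (-0.78 to -0.68) and -1.10 (-1.15 to -1.04), the latter the lowest of the 49 members in PDL1/ATZ. Atp5a1 was at 875 CPM in isotype, 616 in PD1/PEM and 476 in PDL1/ATZ, with ratios of -0.50 and -0.88. Atp5b, the catalytic beta subunit, was at 793 CPM in isotype, 516 in PD1/PEM and 645 in PDL1/ATZ, with ratios of -0.62 and -0.30. It differed from the other members of its complex in that PD1/PEM was its lowest library. Subunit c is encoded by 3 genes with the same mature protein. Atp5g1 was at 139 CPM in isotype, 136 in PD1/PEM and 269.5 in PDL1/ATZ, and Atp5g2 at 74.3, 64.9 and 146 CPM in the same order. Their ratios were -0.04 and -0.19 in PD1/PEM and 0.95 and 0.97 in PDL1/ATZ. Atp5g3 therefore made up 71.9% (71.1 to 72.6) of the UMIs of the 3 genes in isotype, 62.2% (61.1 to 63.3) in PD1/PEM and 38.1% (37.1 to 39.0) in PDL1/ATZ.

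**Figure D3:**
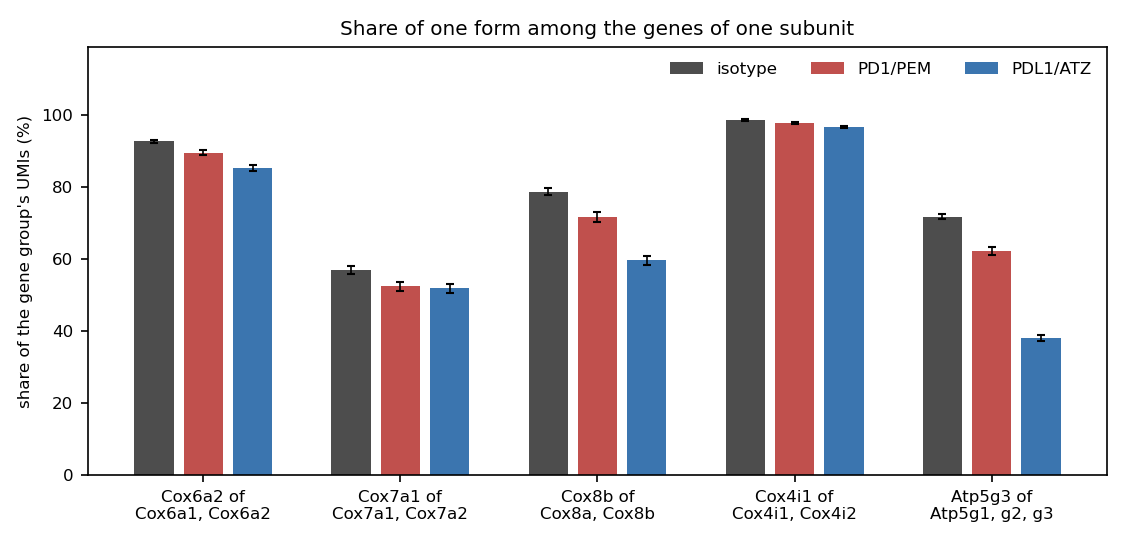
Share (%) of the UMIs of alternative genes for 1 subunit that came from the form named first, in the isotype, PD1/PEM and PDL1/ATZ libraries, with 95% Clopper-Pearson intervals. The share was highest in isotype in each group of bars, and the lowest bar is Atp5g3 in PDL1/ATZ at 38.1%.

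The mitochondrially encoded subunits did not share the pattern of the nuclear ones. In PD1/PEM, 7 of the 13 genes were lower, with a median log2 ratio of -0.01 and a range from -0.38 (mt-Atp8) to 0.10 (mt-Atp6), and none was 1.5-fold apart. For every 100 UMIs of the 7 mitochondrially encoded complex I genes, the 24 nuclear members had 5.12 UMIs in isotype, 3.95 in PD1/PEM and 18.9 in PDL1/ATZ. For complex IV the nuclear members had 3.16, 2.31 and 9.16 UMIs per 100 in that order, for complex III 9.93, 7.21 and 28.3, and for complex V 4.48, 2.79 and 11.1. In all 4 mixed complexes the nuclear share was thus lowest in PD1/PEM and highest in PDL1/ATZ. In PDL1/ATZ all 13 mitochondrially encoded genes were at least 1.5-fold lower, with a median of -1.98, from -3.22 for mt-Nd6 to -1.41 for mt-Co1.

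Other genes around the pathway were read from lists. Of 33 further subunit genes of the 5 complexes, 30 were lower in PD1/PEM, with a median of -0.36. The lowest were Ndufc2 (-0.68) and Ndufab1 (-0.59), both of complex I, and the highest were Cox4i2 (0.42) and the testis form Cox6b2 (0.39), which was at 1.499 CPM in isotype. In PDL1/ATZ 10 of the 33 were lower, with a median of 0.19, from -0.32 for Atp5d to 3.48 for Atp5o, and on nuclear UMIs 21 of the 33 were lower, with a median of -0.13. Of 46 assembly factors, which help build the complexes and are not part of them, 38 were lower in PD1/PEM (median -0.27). The ends of that list were Sco2 (-0.66) and Ecsit (-0.62) and, on the high side, Nubpl (0.43) and Cox16 (0.19). In PDL1/ATZ 13 of the 46 were lower (median 0.23), with Sco1 (-0.71) and Cox10 (-0.61) lowest and Ndufaf7 (1.31) and Cox16 (5.11) highest. On nuclear UMIs 28 of the 46 were lower there (median -0.087). Beside these counts and those of the lists below, 48.9% of all genes tested were lower in PD1/PEM. In PDL1/ATZ 18.2% of all genes were lower on all UMIs and 33.3% on nuclear UMIs.

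All 17 genes of the citric acid cycle, which feeds NADH and succinate to the complexes, were lower in PD1/PEM, with a median of -0.57, and 8 of them were at least 1.5-fold lower. Cs, citrate synthase, was at 153 CPM in isotype, 85.2 in PD1/PEM and 91.8 in PDL1/ATZ, and Idh2, the mitochondrial NADP-linked isocitrate dehydrogenase, at 349.7, 196 and 201 CPM in the same order. Both were at -0.84 in PD1/PEM, under the lowest member of the 49. At the other end were Idh3b (-0.22) and Suclg2 (-0.07). In PDL1/ATZ 15 of the 17 were lower (median -0.68), with Ogdh (-1.13) and Idh3a (-1.12) lowest and Suclg2 (0.58) and Idh3b (0.33) highest.

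The 16 regulators of mitochondrial genes had a median of -0.14 in PD1/PEM, and 11 were lower. Ppargc1a, a coactivator that drives the expression of respiratory genes, was at 1415 CPM in isotype, 519.8 in PD1/PEM and 51.2 in PDL1/ATZ, log2 ratios of -1.45 and -4.79. This was the lowest ratio of the list in each comparison. Esrrb, one of the ERR genes, was at 60.0 CPM in isotype, 35.8 in PD1/PEM and 18.03 in PDL1/ATZ (-0.74 and -1.73). The highest ratios were those of Tfb1m (0.22) and Gabpb2 (0.16) in PD1/PEM and of Gabpb2 (1.19) and Nrf1 (0.99) in PDL1/ATZ, where 9 of 16 were lower with a median of -0.02, or 10 of 16 with a median of -0.34 on nuclear UMIs.

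**Figure D4:**
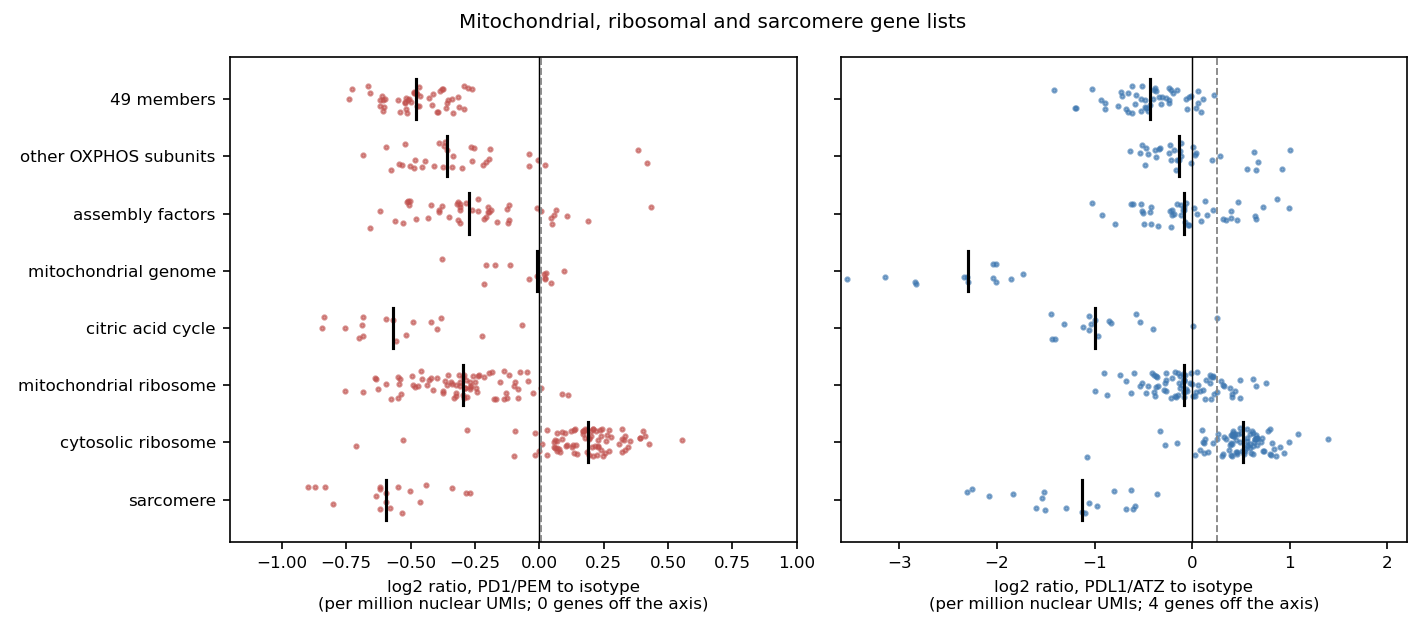
Log2 ratios to isotype in nuclear CPM for the genes of 8 lists (points, 1 per gene; bars, list medians; dashed line, median of all genes tested), PD1/PEM on the left and PDL1/ATZ on the right, on different scales. The medians of the members, the citric acid cycle and the sarcomere lie left of the dashed line in each panel, that of the mitochondrial genome lies close to it in PD1/PEM and far left in PDL1/ATZ, and that of the cytosolic ribosome lies right of it.

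Markers of the cell types in the heart also differed between the libraries, and not all in the same direction as the members. The 19 sarcomere genes, which make up the contractile apparatus of cardiomyocytes, summed to 37147 CPM in isotype, 26558 in PD1/PEM and 16559 in PDL1/ATZ, and all 19 were lower in each treated library. Their medians were -0.59 and -0.81. The lowest were Myl7 (-0.90) and Actc1 (-0.87) in PD1/PEM and Ttn (-1.99) in PDL1/ATZ, and the highest were Tcap (-0.27) and Actn2 (-0.28) in PD1/PEM and Tcap (-0.05) and Tnni3 (-0.27) in PDL1/ATZ. For every 100 member UMIs there were 309 sarcomere UMIs in isotype, 308 in PD1/PEM and 155 in PDL1/ATZ. In PD1/PEM the sums of the members and of the sarcomere genes each had a log2 ratio of -0.48. The medians of members and sarcomere genes were -0.48 and -0.59, and 11 of 49 and 10 of 19 genes were at least 1.5-fold lower. In PDL1/ATZ the sums were at -0.17 and -1.17. These differences were not tested.

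All 10 cardiomyocyte markers, some of them sarcomere genes, were also lower in each comparison (medians -0.49 and -1.19). The 10 endothelial markers summed to 2906 CPM in isotype, 3616 in PD1/PEM and 6706 in PDL1/ATZ, and 9 and 10 of them were higher. The 10 macrophage markers, at 438, 576 and 715 CPM, were all higher in each comparison on all UMIs, and 7 of 10 were higher in PDL1/ATZ on nuclear UMIs. Of the 15494 genes tested in PDL1/ATZ, 12668 were higher on all UMIs and 10327 on nuclear UMIs. In PD1/PEM 7542 of 14748 were higher on all UMIs. The macrophage count on nuclear UMIs was thus near the share of all genes. The 5 erythroid markers summed to 3951, 7175 and 8329 CPM and had 5 and 4 members higher, with medians of 0.89 and 1.04. The 8 fibroblast markers were at 1947, 2279 and 1600.4 CPM, the 7 pericyte markers at 742, 819 and 1192, the 5 smooth muscle markers at 593, 470.5 and 558, and the 6 mesothelial markers at 138, 220.4 and 231. The 6 lymphocyte markers summed to only 7.79, 11.6 and 12.5 CPM, and 1 of them was at 0 in PDL1/ATZ. The 5 adipocyte markers summed to 11.0, 7.86 and 11.3 CPM. The part that these markers had in the members' ratios was not tested.

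Cells were also grouped by what they carried. In cells with at least 3 markers of fibroblasts, endothelium, macrophages, pericytes, smooth muscle or erythroid cells, or of none of the other types, the members' level lay between 15611 and 16352 nuclear CPM in isotype and between 11430 and 11918 in PD1/PEM. Every isotype group was above every PD1/PEM group. Apart from the group with markers of no other type, these groups share cells and are not independent. Cells with endothelial markers were 66.0% of isotype, 84.7% of PD1/PEM and 83.9% of PDL1/ATZ. Those with erythroid markers were 57.1%, 83.6% and 58.7% in the same order. Whether a cell reaches 3 markers also depends on its UMIs. The median cell had 1532.5 UMIs in isotype, 2013.5 in PD1/PEM and 1010 in PDL1/ATZ. In isotype the median was 1809 in cells with endothelial markers and 931 in cells with markers of no other type. The part of depth in these groups was not tested. In PDL1/ATZ the members' level ran from 9284 in cells with smooth muscle markers to 13998 in cells with markers of no other type. The few cells with mesothelial markers (26, 48 and 71) were at 14353, 10506 and 7569 nuclear CPM in isotype, PD1/PEM and PDL1/ATZ. The median cell had 164 member UMIs per 10000 nuclear UMIs in isotype, 116 in PD1/PEM and 122 in PDL1/ATZ. The range of cells from the lower to the upper quartile was 132 to 199 in isotype, 93.7 to 142 in PD1/PEM and 89.8 to 161 in PDL1/ATZ, so cells of the libraries overlapped. A median of 14 members per cell had a UMI in isotype and PD1/PEM and 11 in PDL1/ATZ. With each cell thinned to 700 UMIs (483, 133 and 413 shallower cells left out), the medians were 7, 5 and 7.

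Over bands of at least 30 cells, members were higher in cells with a larger mitochondrially encoded share, in every library. In isotype the members' level was 11824 nuclear CPM in the 419 cells with 15 to 20% mitochondrial UMIs, 14600.5 in the 2100 cells with 20 to 25% and 17397 in the 6919 cells with 25 to 30%. In PD1/PEM the same bands had 8433, 10492 and 12482, from 338, 1596 and 4414 cells. PD1/PEM was lower than isotype in each of these bands, with log2 ratios of -0.49, -0.48 and -0.48, and 48, 49 and 49 of the 49 members were lower, beside 49.8%, 49.1% and 48.4% of all genes tested. In PDL1/ATZ the level was 6812 in the 1152 cells under 5%, 11923 in the 8049 cells with 5 to 10% and 14842 in the 2195 cells with 10 to 15%.

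In the bands that PDL1/ATZ shared with isotype, the members' sum was above isotype. These bands lie above the PDL1/ATZ median of 8.04% and under the isotype median of 27.1%. The cells compared thus come from opposite ends of their libraries. In the band of 10 to 15%, with 2195 PDL1/ATZ and 53 isotype cells, the log2 ratio was 0.56 (0.47 to 0.64), and 11 of 49 members were lower, beside 39.8% of the 7274 genes tested. In the band of 15 to 20%, its 150 cells were at 15761 nuclear CPM against 11824 in isotype, a log2 ratio of 0.41 (0.35 to 0.48), and 7 of the 47 members tested were lower, beside 46.2% of 3923 genes. In the band of 20 to 25%, its 44 cells had a ratio of 0.17 (0.07 to 0.26), with 17 of 48 lower, beside 35.1% of 7275 genes, a share near that of all genes, whose median of 0.30 was above the members' summed ratio. By complex, in the band of 15 to 20%, complex IV was at 0.66 and complex I at 0.48, while complex V was at -0.12 and complex II at -0.18. The sarcomere genes were lower in PDL1/ATZ in the same band, at -1.11. Most PDL1/ATZ cells had a share under 10% and were not compared, since too few isotype cells lie there.

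**Figure D5:**
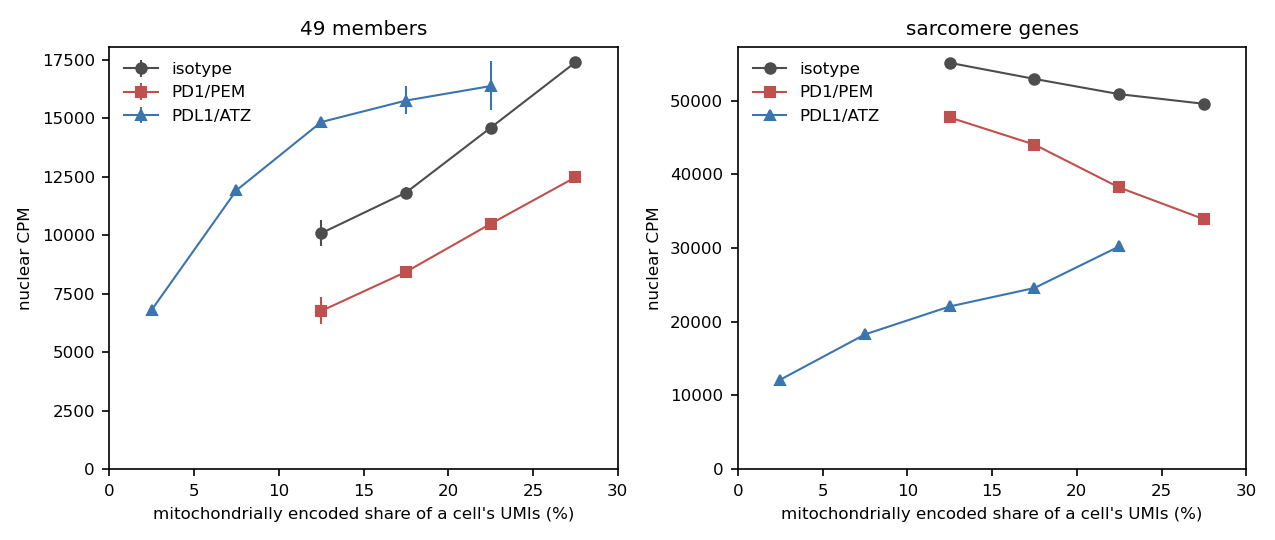
Summed level in nuclear CPM of the 49 members (left) and of 19 sarcomere genes (right) against the mitochondrially encoded share of a cell's UMIs (%), in bands of 5 percentage points with at least 30 cells, by library, with 95% counting intervals on the left. Member levels are higher toward the right in every library, with PD1/PEM under isotype and PDL1/ATZ above it in the bands they share, while sarcomere levels are lower toward the right in isotype and PD1/PEM and higher in PDL1/ATZ.

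The relation of members to the sarcomere genes across cells also differed by library. When cells were split into 3 equal bins by their share of sarcomere UMIs, the members' level was 16301, 16681 and 15797 nuclear CPM from the lowest to the highest bin in isotype. It was 12122, 12224 and 10775 in PD1/PEM, and 9098, 12622 and 14574 in PDL1/ATZ. In isotype and PD1/PEM the top bin was thus the lowest, and PDL1/ATZ was higher with each bin. In isotype the interval was 15678 to 15917 in the top bin and 16176 to 16427 in the first bin. In PD1/PEM it was 10676 to 10875 in the top bin and 12007 to 12237 in the first bin. Each isotype bin lay above each PD1/PEM bin. Sarcomere UMIs are part of the nuclear total, so by construction the level of other genes is lower where the sarcomere share is higher. From the first to the top bin, sarcomere genes went from 38108 to 61825 nuclear CPM in isotype and from 24385 to 47023 in PD1/PEM. In PDL1/ATZ they went from 11094 to 28322. The part of this in the differences between bins was not tested.

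Members are short genes. By GENCODE M21 their spans ran from 0.95 kb for Cox6a2 to 100 kb for Ndufs4, with a median of 7.67 kb, beside 29.4 kb for all genes tested. Median log2 ratios of all genes in PD1/PEM were -0.02 for spans up to 5 kb, -0.03 up to 20 kb, 0.01 up to 100 kb and 0.08 above. The 15, 25 and 8 members in the first 3 of these classes had medians of -0.49, -0.47 and -0.57, under those of genes of like span. In PDL1/ATZ the medians of all genes in these 4 classes were 0.46, 0.45, 0.60 and 0.77, and those of the members in the first 3 were -0.15, -0.02 and -0.32.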

How the data were processed

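Per the labels, hearts were digested and captured with the 10x Genomics 3′ v3.1 kit. Cell Ranger, Seurat and the build mm10 appear in the submitters' processing notes, while versions, annotation and cell filters were not given in the sources used here. As deposited, each matrix holds counts (whole UMIs per gene and cell), and its cells have under 30% mitochondrial UMIs and at most 2499 genes.

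UMIs were summed over all deposited cells of a library, doublets included since no caller was run, and scaled to CPM by all UMIs or by nuclear UMIs. Log2 ratios use a pseudocount of 0.5 UMIs. Genes needed 50 UMIs over the 2 libraries compared and at least 1 in each. Intervals at 95% are exact Poisson for sums, Clopper-Pearson for shares and conditional binomial for ratios. With 1 library per group no p-value was computed, and 1.5-fold was used to count genes as apart. The ratio step was tested on simulated data. Per complex, the named members are the most abundant, the lowest and highest ratio in each comparison, those 1.5-fold apart and the alternative forms, and per list the lowest and highest 2; the value of 1 such gene is not reported here. Members and lists were chosen with earlier results of these data known. Reads shared with processed pseudogenes or overlapping genes could not be told apart, and the way such reads were counted is not given. Of the symbols, 29240 matched GENCODE M21, including all 49 members. Python 3.11.15 with numpy 2.4.6, scipy 1.17.1, pandas 2.3.3 and matplotlib 3.10.9 was used. Per comparison, 12 (PD1/PEM) and 11 (PDL1/ATZ) alternative settings were computed.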

Additional observations from a re-analysis of the deposited data

How the results depend on the processing

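For PD1/PEM against isotype, the summed log2 ratio was between -0.49 and -0.44 under all 12 alternatives. It moved beyond its counting interval only without cells carrying markers of other types, to -0.44, where Ndufa13, Ndufb8, Ndufb9 and Ndufs8 were higher and the other 45 members lower. Uqcrb was higher in cells with 15% to 20% mitochondrial UMIs, and 44 members were lower under every alternative. For PDL1/ATZ against isotype, the choice of total and of cells set the result. The sum was -0.49 on nuclear UMIs, with 15 members at least 1.5-fold lower, and -0.75 relative to the median of all genes, with 49 lower and 30 of them at least 1.5-fold lower. It was -0.026 in cells with at most 25% mitochondrial UMIs, with 3 members at least 1.5-fold lower and 1 higher. In cells with 15% to 20%, it was 0.44, with 7 lower, 2 at least 1.5-fold lower and 20 at least 1.5-fold higher, and Ndufs1 (0.26) and Uqcrc1 (0.14) were reversed. Without the 5% of cells with the most UMIs it was -0.13, and without cells carrying markers of other types 0.085, with 17 lower, 3 at least 1.5-fold lower and 6 higher. Thinned to 700 UMIs it was -0.078 and with cells weighted equally -0.070, each with 1 member at least 1.5-fold higher. Of the members, 8 were lower under each of the 11 alternatives in which they could be tested: Ndufa10, Ndufs8, Sdha, Sdhc, Sdhd, Cyc1, Atp5g3 and Atp5a1 (Ndufs8 and Sdhd had too few UMIs in cells with 15% to 20%). Cells with over 25% mitochondrial UMIs were not compared for PDL1/ATZ, which has 9 of them. The causes of these shifts were not tested. Shares of alternative forms were also recomputed over subsets of cells, a choice made after seeing the data. The isotype share was above that of PD1/PEM in 8 of 8 sets of cells for Cox7a1, Cox8b, Cox4i1 and Atp5g3 and in 7 of 8 for Cox6a2, and above PDL1/ATZ in 7 of 7 for each. No paired analysis was possible because each group is 1 library.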

Other observations

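The ribosomal genes gave 2 different pictures. Of 77 mitochondrial ribosomal protein genes tested in PD1/PEM, 74 were lower than in isotype, with a median log2 ratio of -0.29, from -0.75 for Mrps18b to 0.11 for Mrps11. Of 82 cytosolic ribosomal protein genes tested, 7 were lower, with a median of 0.19, from -0.71 for Rpl29 to 0.56 for Rpl10. Rpl3l, a form of a ribosomal protein made in heart and skeletal muscle, was at 59.2 CPM in isotype, 41.1 in PD1/PEM and 34.9 in PDL1/ATZ. It was thus lower in each treated library (-0.53 and -0.76), while the cytosolic list was mostly higher. In PDL1/ATZ 80 of 82 cytosolic ribosomal genes were higher, with a median of 0.84, and on nuclear UMIs 78 of 82 were higher, with a median of 0.52. Of 78 mitochondrial ribosomal genes in PDL1/ATZ, 59 were higher on all UMIs (median 0.23), and on nuclear UMIs 48 were lower (median -0.086). Beside them, 12668 of all 15494 genes tested were higher on all UMIs, with a median of 0.58. On nuclear UMIs 33.3% of all genes were lower, with a median of 0.26. The median of the mitochondrial ribosomal list was thus under that of all genes on each total.

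A few symbols stood far from isotype in PDL1/ATZ alone. Atp5o, for a stalk subunit of ATP synthase, was at 26.6 CPM in isotype, 19.5 in PD1/PEM and 297 in PDL1/ATZ. Cox16 was at 5.40, 6.16 and 187 CPM in that order, and Rpl13a was at 4.10 on the log2 scale in PDL1/ATZ. The cause was not tested, and none of these symbols is among the 49 members.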
